A study of Mus musculus with 30 samples.

Results

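Progenitor cells injected into the eye at postnatal day 12 (P12) were compared with saline injected on the same day in mouse retinas with oxygen-induced retinopathy (OIR). The tested retinas received endothelial colony-forming cells (ECFC) together with CD34+ cells. The comparison held 6 of the 30 arrays of the study, chosen by their titles: 3 retinas given the combination and 3 given saline. All 12393 genes with a probe set of their own on the array were compared by the difference of the group means on the log2 scale, and the brightest probe set stood for a gene with several.

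In OIR, pups breathe high oxygen while the retinal vessels are still growing. Capillaries of the central retina are lost in that period, and on return to room air the tissue behind them becomes hypoxic. Hypoxia-inducible factor (HIF) then drives Vegfa and other ligands, and tufts of leaky vessels grow towards the vitreous until they regress. Pericytes, the mural cells that wrap capillaries, steady new vessels. They are recruited by the ligand Pdgfb, which endothelial tip cells secrete, through the receptor Pdgfrb on the pericyte. ECFC are endothelial progenitors with a high capacity to divide. CD34 is a surface protein of blood-forming progenitors, and CD34+ cells are thought to act on vessels largely through secreted factors. The title of the series names pericyte ensheathment as its question.

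All OIR pups entered 75% oxygen on day 7 and stayed there for 5 days with their dams. The combination group received 110000 cells into the vitreous on day 12, when the pups went back to room air, made up of 100000 ECFC and 10000 CD34+ cells. The groups given 1 cell type received 100000 ECFC or 10000 CD34+ cells on day 12, and the saline group was injected on the same day. Pups injected on day 5, before oxygen, formed a second set, and uninjected OIR pups and pups kept in room air (normoxia) were the remaining groups, with 3 pups each. The labels give day 17 as the stage of every retina, and the design text pairs injection on day 12 with that stage. Strain, sex, litter, the immune status of the pups and the species and source of the injected cells are not given in the labels. 1 retina was used from each pup, so the replicates were separate animals.

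The 3 combination arrays correlated with each other at r = 0.991 to 0.996 across genes and the 3 saline arrays at 0.994 to 0.997, and no 2 arrays held identical values. Rod genes were among the brightest on the array, with a median log2 level of 12.87 over the list, as fits a whole retina. The interquartile range of the log2 values was narrower in all 3 combination arrays, at 3.23 ± 0.142, than in all 3 saline arrays, at 3.44 ± 0.0275 (SD, n = 3 each; exact permutation p = 0.1, two-sided, the smallest that 3 against 3 arrays can give). Replicate 3 of the combination had the narrowest range of the 6 arrays, at 3.06. By Xist, 0 of 3 combination retinas and 1 of 3 saline retinas were female. The mean of 18 hybridisation control probe sets was 13.45 in the combination group and 13.37 in the saline group, while the arrays of the uninjected OIR group averaged 12.49. Levels of the P12 groups are therefore set beside those of the uninjected groups as values only, and no test crosses them.

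No gene passed the test between combination and saline retinas. With limma and Benjamini-Hochberg adjustment, 0 of 12393 genes had an adjusted p under 0.05 (0%), and the smallest adjusted p was 0.126. At an unadjusted p under 0.05 there were 1226 genes (9.89%), with 765 higher (6.17%) and 461 lower (3.72%) in combination retinas. Without replicate 3 of the combination this count was 333 (2.69%), with 247 higher (1.99%) and 86 lower (0.694%). Every statement below on a group of genes is therefore a description of counts and medians, and it is read against the same measures over all genes. Of all genes, 46% had a difference above 0 and 54% below 0, with a median of -0.02. The 3 combination arrays all lay above the 3 saline arrays for 13.7% of genes and all below them for 10.2%. Median centring of the arrays moved the median of all genes to 0.06, and with it those of the pericyte, vessel stabilisation and barrier lists below to 0.05, 0.03 and 0.01.

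The direction of a difference went with the level of the gene. Genes were put in 10 bins of equal size by their mean level, from bin 1, the dimmest. In bin 1, 87.7% stood higher in combination retinas, with a median difference of 0.19, and in bins 2 and 3 it was 83.1% and 71.2%, with medians of 0.23 and 0.16. In bins 5 to 9, between 22.6% and 31.2% stood higher, and the medians ran from -0.11 to -0.06. Replicate 3 of the combination departed most, with a median of 0.36 above the saline mean in bin 2 and -0.26 in bin 6. In replicate 1 of the combination the same medians were 0.15 and -0.03. After quantile normalization the medians of the bins lay between -0.02 and 0.08. The part of this pattern in the differences of dim genes below was not tested.

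**Figure D1:**
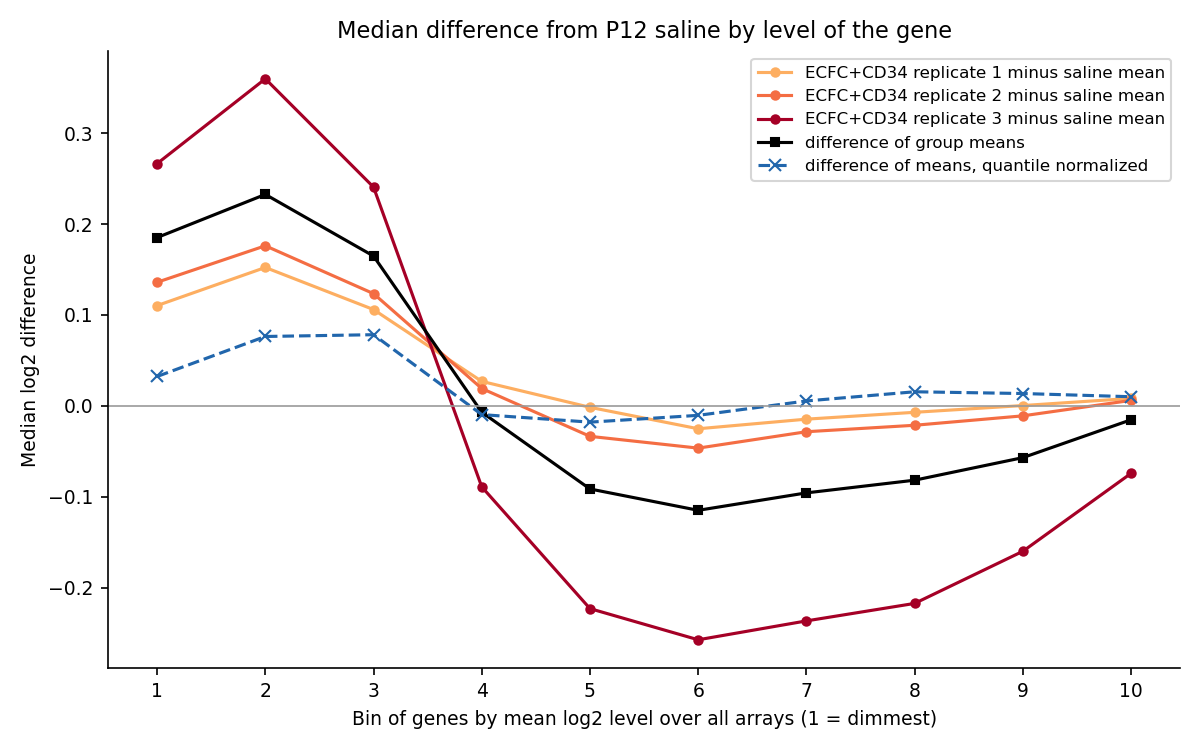
Median log2 difference from the P12 saline mean (vertical) in 10 bins of genes by mean level (horizontal), for each ECFC+CD34 array, for the difference of group means and for the same after quantile normalization. Dim genes stand above 0 and genes of middle level below 0, most so in replicate 3, and the quantile-normalized line stays between -0.02 and 0.08.

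The smallest p belonged to Tat, which encodes tyrosine aminotransferase, an enzyme of tyrosine breakdown known from liver. Its log2 level was 5.43, 5.65 and 5.82 in combination retinas, against 4.90, 5.16 and 5.01 in saline retinas. The arrays did not overlap, and the difference was 0.61 ± 0.11 (SE), with an adjusted p of 0.126. Its mean over all arrays put it in level bin 1. Alpk2, an alpha-kinase, read 6.56, 7.39 and 7.52 in combination retinas and 5.75, 6.38 and 6.25 in saline retinas. Its difference was 1.03 ± 0.22, and the adjusted p was 0.441. Without replicate 1 of the combination, Tat and Alpk2 were the 2 genes that passed, each with an adjusted p of 0.019.

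After Tat and Alpk2, the other genes among the 6 of smallest p in each direction had varied functions. Adgrb1, an adhesion receptor of the brain that binds dying cells, read 9.40, 9.45 and 9.49 in combination retinas and 9.16, 8.55 and 8.99 in saline retinas. It was the brightest of the higher genes, at a difference of 0.55 ± 0.12. Ctrc, a pancreatic protease, Krt82, a hair keratin, and Uts2r, the urotensin receptor, differed by 0.59 ± 0.14, 0.75 ± 0.18 and 0.998 ± 0.238, and none of the 3 read above 7 on any of the 6 arrays. On the lower side, Akt2, a kinase of insulin and growth factor signalling, read 9.50, 9.20 and 9.09 in combination retinas and 9.72, 9.90 and 9.72 in saline retinas. Its difference was -0.52 ± 0.13, while a second Akt2 probe set gave 0.11 ± 0.10. Trip6, an adaptor at focal adhesions, Ppp2r1b, a scaffold subunit of a protein phosphatase, Nipa2, a magnesium transporter, and Fndc3a differed by -0.32 ± 0.09, -0.35 ± 0.09, -0.42 ± 0.12 and -0.31 ± 0.09. Plod2, which hydroxylates collagen lysines before cross-linking, read 8.73, 8.42 and 8.57 in combination retinas and 9.04, 8.96 and 9.03 in saline retinas. The adjusted p was 0.441 for Adgrb1 and 0.497 for the 9 genes after it.

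Pericyte genes showed no difference that the test could tell from 0. Of 20 measured pericyte and mural cell genes, 12 lay lower and 8 higher in combination retinas, with a median difference of -0.03, and 0 had an unadjusted p under 0.05. Pdgfrb read 9.50, 9.24 and 9.46 in combination retinas and 9.35, 9.47 and 9.62 in saline retinas. The groups overlapped, and the difference was -0.08 ± 0.17, with a 95% interval of -0.43 to 0.26. Rgs5, a regulator of G protein signalling and a defining pericyte marker, read 12.66, 12.56 and 12.79 in combination retinas and 12.54, 12.54 and 12.71 in saline retinas. Its difference was 0.07, with an interval of -0.27 to 0.42. Cspg4, the NG2 proteoglycan of pericytes, read 7.92, 7.66 and 7.96 in combination retinas and 7.84, 7.80 and 8.07 in saline retinas, a difference of -0.06 with an interval of -0.43 to 0.32. For these probe sets the intervals lay within 1.5-fold in either direction. A second probe set gave -0.28 for Pdgfrb, with an interval of -0.82 to 0.26, and 0.35 for Cspg4, with an interval of -0.07 to 0.77, so those bounds are wider. In whole-retina RNA, fewer cells of a type and less RNA per cell cannot be told apart, and RNA level does not show where on a vessel a pericyte lies.

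Of the contractile and adhesion genes of mural cells named here, Acta2 varied most between pups. Mcam, an adhesion molecule of pericytes and endothelium, read 8.42, 7.91 and 8.42 in combination retinas and 8.61, 8.49 and 8.69 in saline retinas, a difference of -0.35 ± 0.19. Acta2, smooth muscle actin, read 9.95, 8.65 and 9.68 in combination retinas and 9.60, 9.42 and 10.34 in saline retinas. The spread within each group was larger than the difference of -0.36 ± 0.48, and a dimmer probe set gave 0.29 ± 0.20. Cnn1, the smooth muscle protein calponin, stood 0.32 ± 0.19 higher in combination retinas, at levels of 5.36 to 5.71 against 5.07 to 5.28 in saline retinas, in the dim range.

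Pdgfb, the ligand that draws pericytes, had probe sets of opposite sign. The brighter one read 7.83, 7.81 and 8.17 in combination retinas and 7.90, 7.36 and 7.61 in saline retinas. Saline replicate 1 lay within the combination group, and the difference was 0.31 ± 0.17 (adjusted p = 0.51), or 0.19 without replicate 3 of the combination. The dimmer one differed by -0.23 ± 0.25. Of 21 genes of vessel stabilisation, 15 lay lower and 6 higher, with a median of -0.05. 2 had an unadjusted p under 0.05, and both lay lower (3.72% of all genes did so). Cdh2, the N-cadherin that joins pericytes to endothelium and is also abundant in retinal neurons, read 11.71, 11.52 and 11.36 in combination retinas and 11.94, 11.89 and 11.87 in saline retinas. Jag1, a Notch ligand of endothelium, differed by -0.26 ± 0.11. Neither passed, with adjusted p of 0.497 for Cdh2 and 0.498 for Jag1.

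**Figure D2:**
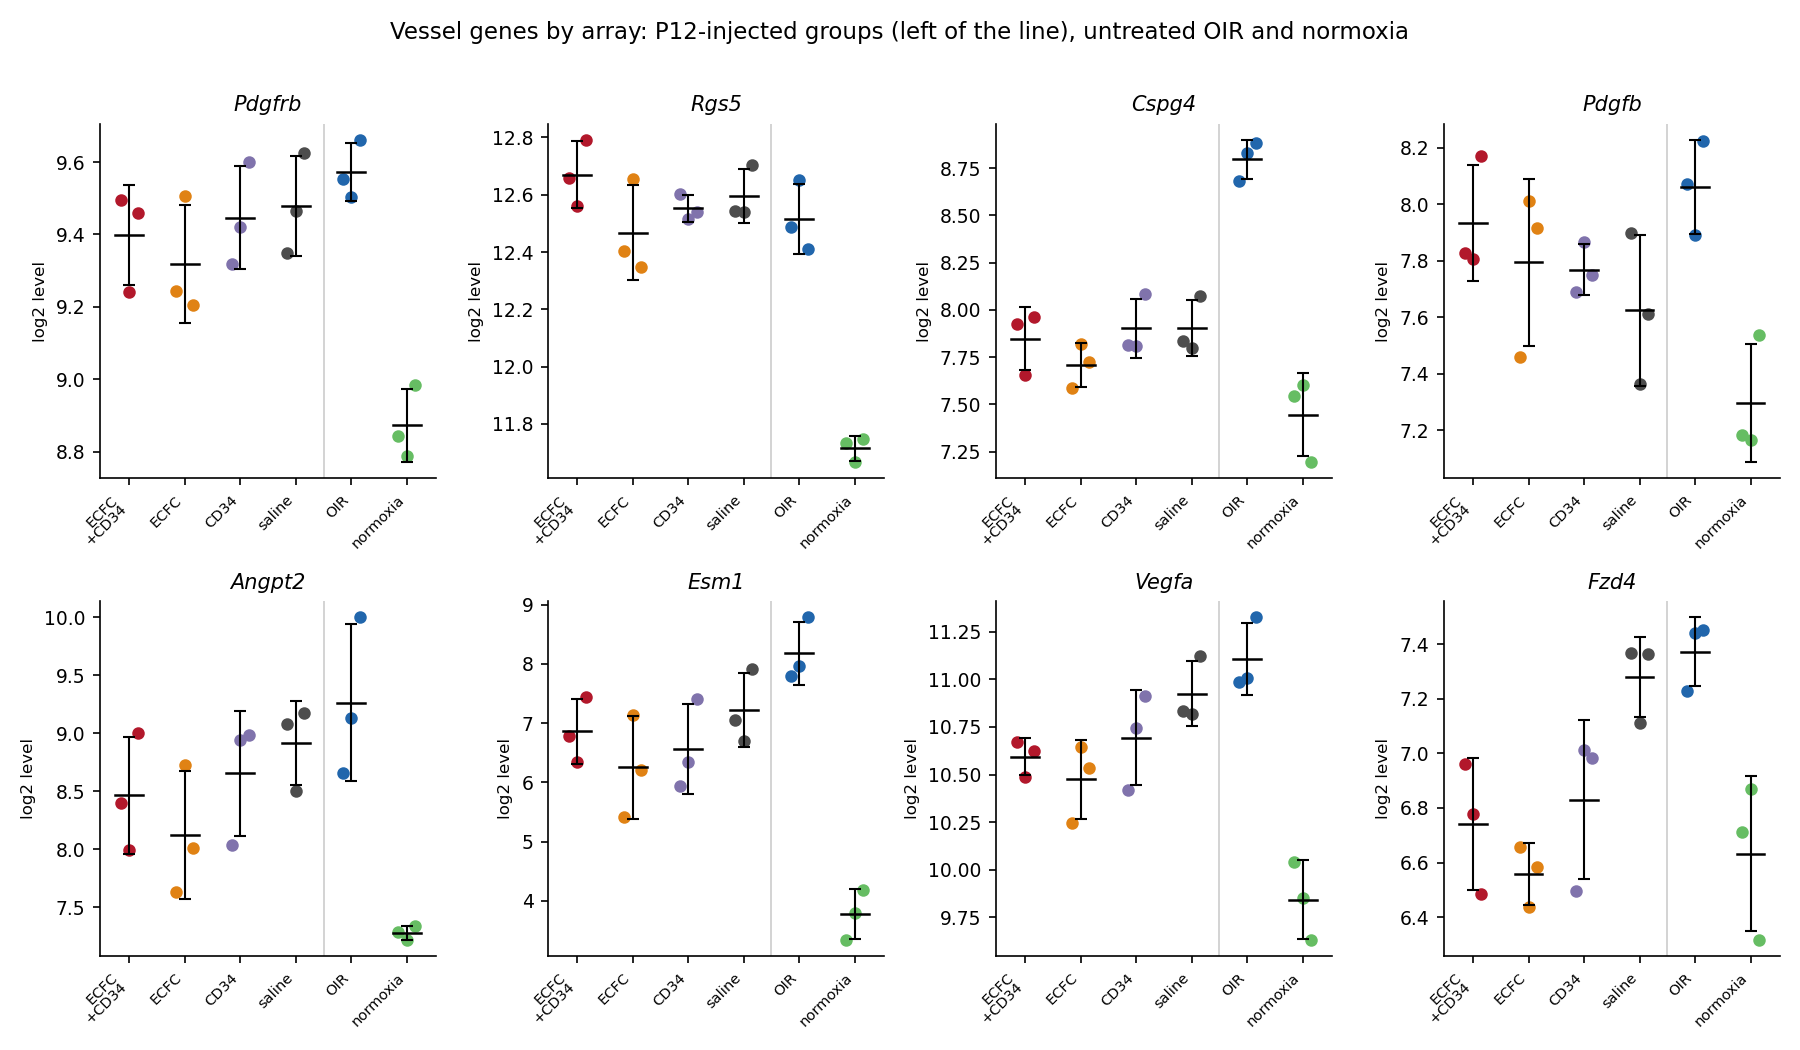
Log2 levels of 8 vessel genes in each retina, with group means and SD (bars), for P12 ECFC+CD34, ECFC, CD34 and saline, then untreated OIR and normoxia (n = 3 each). Pdgfrb, Rgs5 and Cspg4 of the ECFC+CD34 group overlap saline, while all ECFC+CD34 values of Vegfa and Fzd4 lie below all saline values.

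Endothelial genes lay slightly lower in combination retinas. Of 22 measured pan-endothelial genes, 18 lay lower, with a median of -0.16 (all genes -0.02), and 0 had an unadjusted p under 0.05. Quantile normalization brought this to 14 genes and a median of -0.07. The mean log2 level of the list was 8.91, 8.74 and 8.72 in combination retinas and 8.89, 8.96 and 8.91 in saline retinas, so replicate 1 of the combination lay within the saline range. Pecam1, the platelet endothelial adhesion molecule, differed by -0.25 ± 0.17, Cdh5, the cadherin of endothelial junctions, by -0.26 ± 0.19, and Vwf, the clotting factor carrier stored in endothelium, by -0.39 ± 0.21. Podxl, a sialomucin of the luminal membrane, read 11.56, 11.31 and 11.35 in combination retinas and 11.60, 11.63 and 11.69 in saline retinas. Plvap, which forms the diaphragms of leaky endothelium, overlapped, with a difference of -0.06 ± 0.17.

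Tip cell genes, which mark sprouting vessels, had a median difference of 1.45 between uninjected OIR and normoxia, and several varied widely between pups of 1 group. Of 18 measured, 13 lay lower in combination retinas, with a median of -0.17. 3 had an unadjusted p under 0.05, all lower (3.72% of all genes did so). Among them was Adm, which is also counted with the HIF targets below. Arrays lay fully below saline for 16.7% of the list, against 10.2% of all genes. Esm1, a proteoglycan secreted by tip cells, read 6.79, 6.35 and 7.44 in combination retinas and 7.05, 6.70 and 7.91 in saline retinas. The groups overlapped, and the difference was -0.36 ± 0.48. Angpt2, the Tie receptor ligand that loosens vessels, read 8.40, 7.998 and 9.002 in combination retinas and 9.08, 8.504 and 9.17 in saline retinas, a difference of -0.45 ± 0.31. Apln, the apelin peptide of tip cells, differed by -0.41 ± 0.35. Without replicate 3 of the combination, the highest of its group for all 3 genes, these differences were -0.65, -0.72 and -0.62. Nid2, a basement membrane protein of vessels, read 8.87, 8.05 and 8.43 in combination retinas and 9.02, 9.01 and 9.02 in saline retinas, a difference of -0.57 ± 0.23 (adjusted p = 0.497). Kcne3, a potassium channel subunit of sprouting endothelium, differed by -0.44 ± 0.19.

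Vegfa, the main ligand of vessel growth in this model, read 10.67, 10.49 and 10.62 in combination retinas and 10.83, 10.82 and 11.12 in saline retinas. All 3 combination arrays lay below all 3 saline arrays, and the difference was -0.33 ± 0.18, or 1.26-fold lower, with an adjusted p of 0.509. Uninjected OIR retinas read 10.99, 11.01 and 11.32 and normoxic retinas 10.04, 9.85 and 9.63. Of the 10 VEGF ligands and receptors measured, 6 lay lower and 4 higher. Nrp1, a coreceptor on arterial and tip endothelium, differed by -0.31 ± 0.16 and Flt1, the decoy receptor, by -0.17 ± 0.12. Nrp2, the coreceptor of veins and lymphatics, differed by 0.26 ± 0.18, or 0.07 without replicate 3 of the combination.

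Of 16 measured genes of the Norrin pathway and the blood-retina barrier, 11 lay lower in combination retinas, with a median of -0.07, and 6 had combination arrays wholly below saline (37.5%, against 10.2% of all genes). 3 had an unadjusted p under 0.05, all lower (3.72% of all genes did so), and 0 without replicate 3 of the combination (0.694% of all genes). Norrin (Ndp) is secreted by Muller glia and binds the receptor Fzd4 with the tetraspanin Tspan12 on endothelium, which switches on barrier genes. Ndp read 6.55, 6.50 and 6.08 in combination retinas and 6.64, 6.87 and 6.68 in saline retinas. Fzd4 read 6.96, 6.78 and 6.48 in combination retinas and 7.37, 7.11 and 7.36 in saline retinas, a difference of -0.54 ± 0.22. A second, dimmer Fzd4 probe set gave -0.16 ± 0.26, with an interval of -0.70 to 0.37. Tspan12 read 6.92, 6.93 and 6.78 in combination retinas and 7.36, 7.38 and 7.45 in saline retinas, a difference of -0.52 ± 0.21. At the probe sets kept, the ligand and both receptor parts lay lower by 1.28-fold to 1.45-fold. Ocln, the tight junction protein occludin, differed by -0.38 ± 0.19. The adjusted p ran from 0.497 to 0.504 for these 4 genes. The median log2 level of the barrier list was 7.91, in level bin 5, where 31.2% of genes stood higher and the median was -0.09. After quantile normalization 10 genes of the list lay lower, with a median of -0.07, and after median centring 8 did. Ndp, Fzd4 and Ocln fell in level bin 3, from 6.19 to 7.07, whose genes had a median of 0.16, above 0. Tspan12 fell in bin 4, with a median of -0.01. After quantile normalization the differences of Fzd4 and Tspan12 were -0.66 and -0.61.

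Genes of the basement membrane and vessel matrix lay lower as a list, with 20 of 26 below 0, a median of -0.23 and 7 with arrays fully below saline (26.9%, against 10.2% of all genes). Without replicate 2 of the combination the median was -0.12, and after quantile normalization it was -0.17, with 20 genes lower. The median log2 level of the list was 9.01, in level bin 6, where 23.2% of genes stood higher and the median was -0.11. Serpinh1, the chaperone of collagen folding, read 11.21, 10.66 and 11.02 in combination retinas and 11.30, 11.40 and 11.47 in saline retinas. Its difference was -0.42 ± 0.18. Fbln1, the matrix protein fibulin, read 9.69, 8.02 and 9.18 in combination retinas and 10.01, 10.53 and 9.95 in saline retinas. That is a difference of -1.20 ± 0.61, with replicate 2 of the combination lowest. Lamc3, a laminin chain, stood 0.27 ± 0.17 higher with overlapping arrays. In TGF-beta and BMP signalling, 19 of 25 genes lay lower, with a median of -0.12, and 3 had an unadjusted p under 0.05, all lower (3.72% of all genes), or 1 without replicate 3 of the combination. They were Smad3 and Smad2, the signal carriers of the pathway, and Ltbp1, which stores latent TGF-beta in matrix, with differences of -0.28 ± 0.09, -0.32 ± 0.12 and -0.79 ± 0.35. A second, dimmer Smad3 probe set gave -0.10 ± 0.14. The median log2 level of the TGF-beta and BMP list was 8.32, in level bin 5, where 31.2% of genes stood higher and the median was -0.09. After quantile normalization the median of that list was -0.10.

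HIF targets were the list in which the largest share of members separated the groups without overlap in the lower direction. Of 29 measured HIF targets and glycolysis enzymes, 25 lay lower in combination retinas, with a median of -0.17, and 14 of them (48.3%, against 10.2% of all genes) had all 3 combination arrays below all 3 saline arrays. After quantile normalization 26 lay lower, with a median of -0.14, and the median ran from -0.24 to -0.11 when each array was left out in turn. 4 had an unadjusted p under 0.05, all lower, with and without replicate 3 of the combination (3.72% and 0.694% of all genes did so). The mean log2 level of the list was 11.09, 10.997 and 11.15 in combination retinas and 11.26, 11.20 and 11.41 in saline retinas, so the 2 groups did not overlap. The other P12 groups read 10.91, 11.23 and 11.04 with ECFC alone and 11.02, 11.18 and 11.24 with CD34+ cells alone. Uninjected OIR retinas read 11.23, 11.18 and 11.42 and normoxic retinas 10.71, 10.72 and 10.60.

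The promoters of the 4 HIF targets of smallest p are shown because these genes lay lower together and HIF is known to bind the core letters ACGTG or GCGTG. Each line gives 250 bases before and 50 after the RefSeq start in build GRCm38.p6, read 5′ to 3′ on the strand of the gene, with matches to either motif on either strand in capitals.
Stc2, chr11:31370012-31370311, minus strand: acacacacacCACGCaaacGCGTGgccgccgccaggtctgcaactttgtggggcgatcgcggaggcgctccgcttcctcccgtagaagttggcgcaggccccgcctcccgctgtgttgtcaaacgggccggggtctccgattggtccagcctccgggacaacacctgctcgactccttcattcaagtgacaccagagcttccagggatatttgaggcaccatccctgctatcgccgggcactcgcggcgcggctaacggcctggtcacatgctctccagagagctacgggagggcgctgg
P4ha1, chr10:59323046-59323345, plus strand: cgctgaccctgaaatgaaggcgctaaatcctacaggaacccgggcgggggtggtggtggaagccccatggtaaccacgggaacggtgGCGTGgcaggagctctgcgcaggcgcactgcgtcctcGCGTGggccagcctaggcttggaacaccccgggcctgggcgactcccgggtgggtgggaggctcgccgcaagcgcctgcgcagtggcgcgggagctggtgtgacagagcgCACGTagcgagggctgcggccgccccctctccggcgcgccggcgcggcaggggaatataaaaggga
Pdk1, chr2:71872974-71873273, plus strand: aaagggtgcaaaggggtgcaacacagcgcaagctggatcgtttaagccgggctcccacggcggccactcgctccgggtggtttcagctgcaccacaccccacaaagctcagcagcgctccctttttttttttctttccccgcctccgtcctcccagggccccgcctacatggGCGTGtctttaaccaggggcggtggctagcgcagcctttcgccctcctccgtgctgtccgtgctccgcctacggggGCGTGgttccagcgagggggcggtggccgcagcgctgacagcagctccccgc
Adm, chr7:110627407-110627706, plus strand: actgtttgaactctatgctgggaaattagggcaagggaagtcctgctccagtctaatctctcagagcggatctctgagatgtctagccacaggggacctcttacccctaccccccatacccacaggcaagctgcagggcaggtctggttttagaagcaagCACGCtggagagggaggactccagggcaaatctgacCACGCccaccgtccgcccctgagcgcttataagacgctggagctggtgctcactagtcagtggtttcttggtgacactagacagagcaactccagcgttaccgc
GCGTG matched 2 places in each of the 4 windows, and ACGTG matched 1 place in P4ha1 only. Pdk1 has 2 annotated starts, and the window shown is the 1 of them that holds a match. ACGTG stood in 19.6% and GCGTG in 32.4% of all 32851 promoter windows, and either motif in 43.8%. Among genes with a window, either motif stood in a window of 26 of 28 listed HIF targets, against 46.7% of 27025 genes. The motifs overlap where CACGTG occurs, and a match is a run of letters and no evidence of binding in these retinas.

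Adm, the vasodilator peptide adrenomedullin, read 7.63, 7.31 and 8.09 in combination retinas and 8.21, 8.45 and 8.98 in saline retinas. Its difference of -0.87 ± 0.39, or 1.82-fold lower, was the largest of the list, and its adjusted p was 0.499. Normoxic retinas read 5.54, 5.38 and 5.35, so Adm stayed well above the normoxic level in both injected groups. Stc2, a secreted glycoprotein induced by hypoxia and endoplasmic reticulum stress, read 9.10, 8.79 and 9.19 in combination retinas and 9.58, 9.45 and 9.81 in saline retinas. Its difference was -0.58 ± 0.24, and a second, dimmer probe set gave -0.19 ± 0.18. P4ha1, which hydroxylates collagen prolines, read 10.21, 10.16 and 10.01 in combination retinas and 10.49, 10.38 and 10.54 in saline retinas. Pdk1 is the kinase that holds pyruvate back from oxidation in the mitochondrion. It read 9.49, 9.39 and 9.52 in combination retinas and 9.79, 9.64 and 10.12 in saline retinas. Both had non-overlapping arrays, with differences of -0.34 ± 0.14 and -0.38 ± 0.17. Genes of the respiratory chain and ATP synthase were close to the median of all genes, at -0.02 over 29 genes.

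The insulin-like growth factor system held differences of both signs. Igfbp3, a carrier of insulin-like growth factors, read 8.60, 7.45 and 8.15 in combination retinas and 8.87, 8.67 and 9.23 in saline retinas, a difference of -0.86 ± 0.40. Igfbp6, another carrier, read 7.05, 7.01 and 7.23 in combination retinas and 6.62, 6.77 and 6.48 in saline retinas, a difference of 0.47 ± 0.15. Igfals, the subunit that forms the circulating complex, stood 0.38 ± 0.17 higher at dim levels. Of the 15 genes of this list 10 lay lower.

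Cell cycle genes lay lower in 20 of 24 cases, with a median of -0.22, the same count after quantile normalization. 5 had an unadjusted p under 0.05 (20.8%, against 3.72% of all genes in the lower direction), and 1 did without replicate 3 of the combination. Birc5, the mitotic survivin, read 6.42, 6.27 and 6.30 in combination retinas and 6.38, 7.40 and 6.82 in saline retinas. Its difference was -0.53 ± 0.22, with saline replicate 1 within the combination range. Nusap1, a spindle protein, read 7.38, 7.47 and 7.33 in combination retinas and 7.71, 7.91 and 7.68 in saline retinas. Cenpe, a kinetochore motor, and Mcm2, a part of the replication helicase, differed by -0.48 ± 0.16 and -0.38 ± 0.16 with overlapping arrays. A second, dimmer Mcm2 probe set gave 0.11 ± 0.17.

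Gliosis genes had the largest median difference of the 42 lists, and within the 2 groups compared their levels spread widely between pups. Gliosis is the stress response of Muller glia and astrocytes, marked by the filament protein Gfap and driven through Stat3. Of 24 measured members 23 lay lower in combination retinas, with a median of -0.68 and a range from -1.56 to 0.10. The count was 23 under quantile normalization, under median centring and without replicate 3 of the combination, and the median ran from -0.93 to -0.44 when each array was left out in turn. 1 member, Cd44, had an unadjusted p under 0.05 and lay lower (3.72% of all genes did so), or 0 without replicate 3 of the combination. 5 members (20.8%, against 10.2% of all genes) had arrays fully below saline. The mean log2 level of the list was 8.97, 8.22 and 8.82 in combination retinas and 8.82, 9.56 and 9.70 in saline retinas. Saline replicate 1 therefore fell between the combination retinas, and replicate 2 of the combination was the lowest of the 6.

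Gfap read 10.30, 8.52 and 10.03 in combination retinas and 10.45, 11.03 and 11.08 in saline retinas. The arrays did not overlap, but the gap between the nearest retinas was small beside the range within the combination group, and the difference was -1.23 ± 0.72, with a 95% interval of -2.73 to 0.26 (adjusted p = 0.531). Normoxic retinas read 7.82, 8.23 and 7.75, and uninjected OIR retinas 9.17, 9.55 and 11.27. Stat3 read 11.15, 10.41 and 10.86 in combination retinas and 11.17, 11.51 and 11.62 in saline retinas, a difference of -0.62 ± 0.35, and its other probe sets gave -0.43 ± 0.35 and, the dimmest, 0.14 ± 0.20. Cd44, a receptor for hyaluronan that Muller glia raise under stress, read 8.38, 7.61 and 7.80 in combination retinas and 8.15, 8.82 and 8.93 in saline retinas. Nes, the filament protein nestin, and Il6st, the shared receptor chain of the interleukin-6 family, differed by -0.51 ± 0.26 and -0.28 ± 0.15. Lcn2, an iron-binding protein of reactive glia, differed by -1.25 ± 1.13, with an interval from -3.59 to 1.09. Bag3, a stress co-chaperone, read 6.91, 6.25 and 6.60 in combination retinas and 7.09, 7.19 and 7.53 in saline retinas. It belongs to the list of 11 cytosolic heat shock genes, of which 6 lay higher and 5 lower, and Bag3 was the 1 with an unadjusted p under 0.05.

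**Figure D3:**
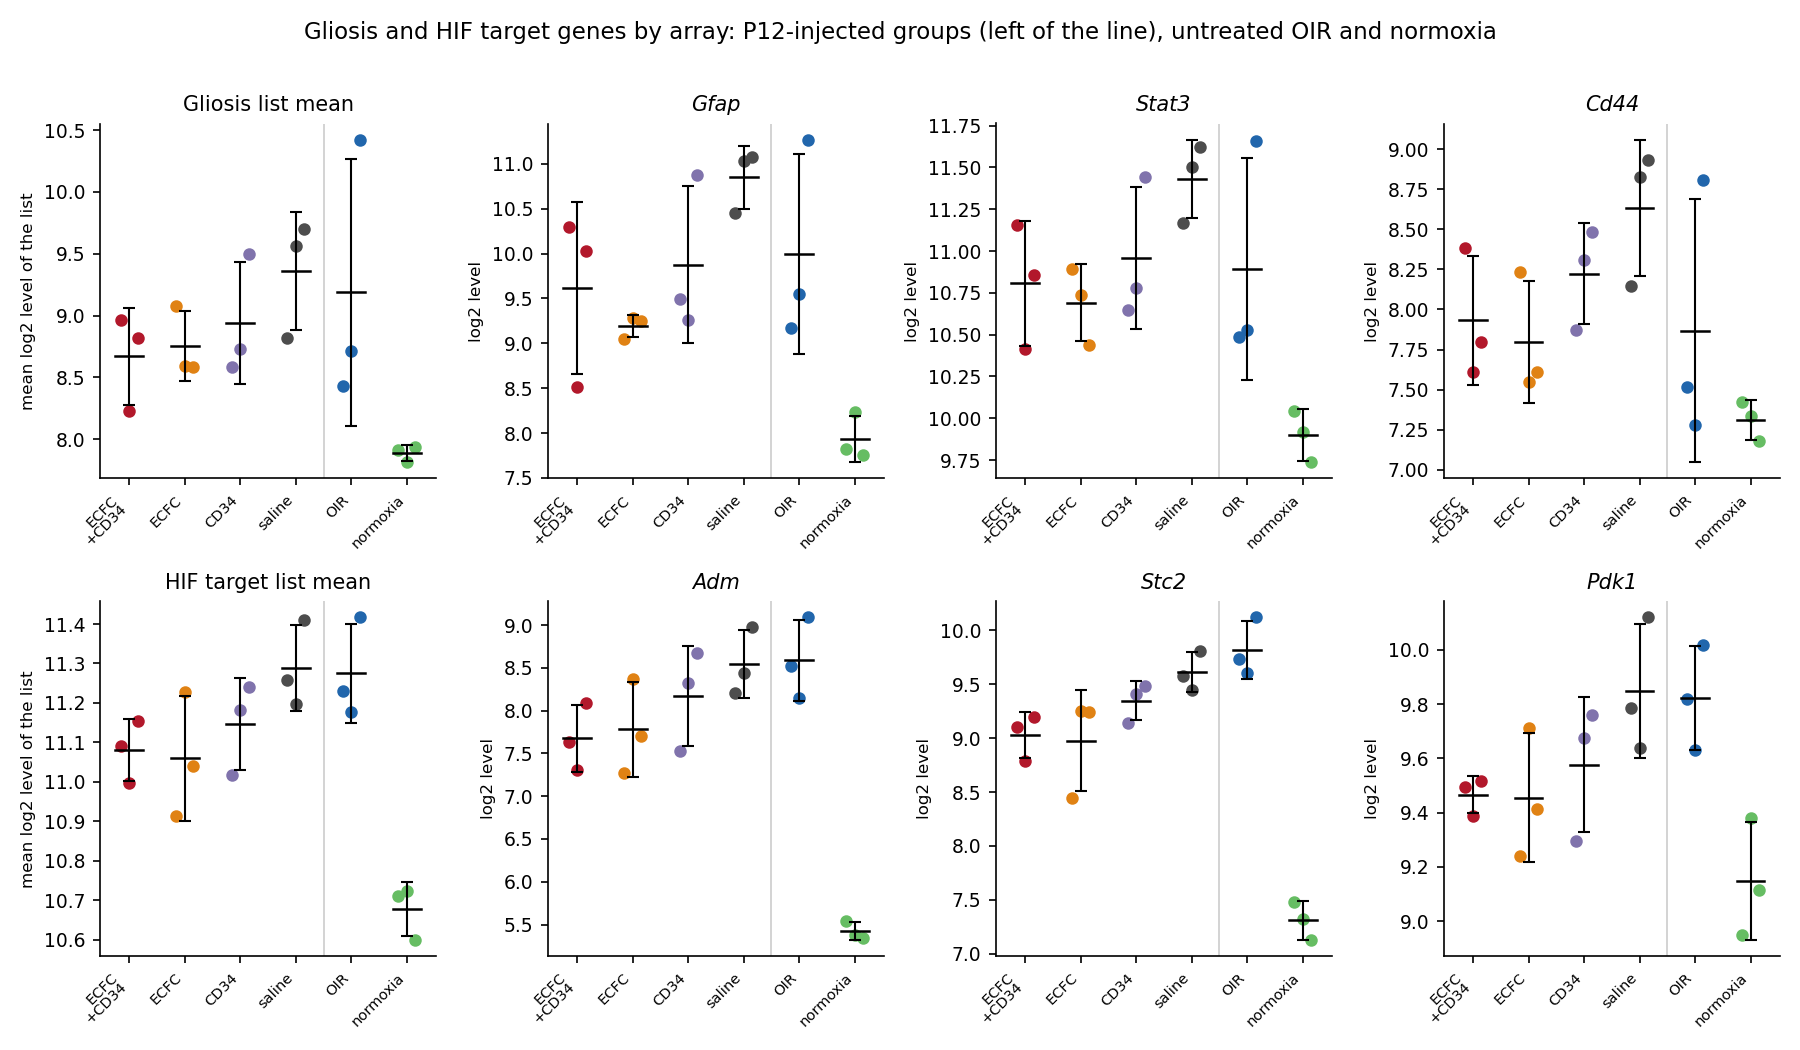
Log2 levels by retina of the gliosis list mean, Gfap, Stat3 and Cd44 (top) and of the HIF target list mean, Adm, Stc2 and Pdk1 (bottom), with group means and SD, for P12 ECFC+CD34, ECFC, CD34 and saline, then untreated OIR and normoxia (n = 3 each). The gliosis mean of saline replicate 1 (8.82) falls among the ECFC+CD34 retinas, while no ECFC+CD34 retina reaches the saline range of the HIF list.

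Muller glia identity genes had a median of -0.03 over 21 genes, with 14 lower and 7 higher and a range from -0.63 to 0.20. 5 had arrays fully below saline (23.8%, against 10.2% of all genes), 0 fully above, and 0 had an unadjusted p under 0.05. The number lower was 9 without replicate 3 of the combination and 11 after quantile normalization. Glul, the glutamine synthetase of Muller glia, differed by 0.17 ± 0.12, with -0.13 ± 0.19 at a dimmer probe set. Sox9, a transcription factor that these glia keep into adulthood, differed by -0.34 ± 0.17. The neuronal lists were close to the median of all genes: 0.01 for 24 rod genes, 0.07 for 10 cone genes, 0.01 for 19 amacrine genes, -0.05 for 12 bipolar genes and 0.06 for 15 ganglion cell genes. Besides Prph below, 1 gene of these 5 lists had an unadjusted p under 0.05, Bhlhe23, a transcription factor of rod bipolar cells, at -0.32 ± 0.15. Arr3, the cone arrestin, read 10.28, 10.48 and 10.23 in combination retinas and 10.22, 9.93 and 9.94 in saline retinas. Slc6a9, the glycine transporter of amacrine cells, and Cartpt, a neuropeptide precursor, stood 0.23 ± 0.14 and 0.27 ± 0.17 higher with non-overlapping arrays. Th, the tyrosine hydroxylase of dopaminergic amacrine cells, stood 0.39 ± 0.19 higher at dim levels. Prph, a filament protein of ganglion cells that rises in injured neurons, read 7.85, 7.59 and 7.34 in combination retinas and 8.07, 8.44 and 8.46 in saline retinas, a difference of -0.73 ± 0.30. The other 3 Prph probe sets were dimmer and stood higher, by 0.47 ± 0.31, 0.32 ± 0.15 and 0.29 ± 0.18, so the probe sets disagree on its direction. Rbpms, the common ganglion cell marker, differed by -0.08 ± 0.24.

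Microglia and macrophage genes lay lower in 20 of 25 cases, with a median of -0.26 and 0 at an unadjusted p under 0.05. Aif1, the calcium-binding protein of microglia, read 7.26, 7.15 and 7.08 in combination retinas and 7.36, 7.88 and 8.03 in saline retinas. Cx3cr1, their fractalkine receptor, read 7.46, 7.29 and 7.45 in combination retinas and 7.50, 7.64 and 7.83 in saline retinas, a difference of -0.26 ± 0.23. Ptprc, the common leukocyte antigen, differed by -0.59 ± 0.50. Itgam, the integrin of myeloid cells, stood 0.32 ± 0.18 higher at levels of 5.46 to 5.69 in combination retinas against 5.06 to 5.44 in saline retinas.

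Genes of lymphocytes and neutrophils stood higher, in the dim range where most genes did. Of 14 T and NK cell genes 13 stood higher, with a median of 0.32, and 5 had an unadjusted p under 0.05, all higher (6.17% of all genes), or 1 without replicate 3 of the combination (1.99% of all genes). Of 12 neutrophil granule genes 11 stood higher, with a median of 0.30. The median log2 level was 5.46 and 5.59 over the 2 lists, and level bins 1 and 2 had medians of 0.19 and 0.23. After quantile normalization the medians were 0.21 and 0.18. Mpo, the neutrophil peroxidase, read 5.17, 5.52 and 6.16 in combination retinas and 4.90, 4.88 and 4.86 in saline retinas. Its difference was 0.74 ± 0.21, or 0.47 without replicate 3. Il2rb, an interleukin receptor chain of T and NK cells, and Cd8b1, a coreceptor of killer T cells, differed by 0.54 ± 0.17 and 0.72 ± 0.24. Cd3e, a part of the T cell receptor complex, read 5.24, 5.94 and 6.14 in combination retinas and 5.26, 5.12 and 5.26 in saline retinas, so replicate 1 of the combination was at the saline level.

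Inflammatory chemokine and adhesion genes held both signs, with 15 of 24 higher and a median of 0.07. Ccl4, a chemokine of activated microglia, read 7.22, 7.27 and 7.60 in combination retinas and 6.81, 6.76 and 6.82 in saline retinas, a difference of 0.56 ± 0.22. Cxcl16 stood 0.31 ± 0.17 higher at about 9 on the log2 scale, while its second probe set gave -0.15 ± 0.24. Icam1, the adhesion molecule through which leukocytes leave vessels, read 7.42, 7.17 and 6.79 in combination retinas and 7.48, 7.49 and 7.62 in saline retinas, a difference of -0.40 ± 0.24. Among interferon genes Mx1, an antiviral protein, stood 0.75 ± 0.31 higher, or 0.48 without replicate 3 of the combination, and the list median was -0.10.

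Immediate early genes, which follow neuronal and growth factor activity, included Nr4a1 at 8.04, 7.90 and 8.17 in combination retinas against 8.57, 8.43 and 9.27 in saline retinas, and Egr3 at 8.45, 8.54 and 8.81 in combination retinas against 8.19, 8.12 and 8.23 in saline retinas. The 2 differences were -0.72 ± 0.30 and 0.42 ± 0.17, opposite in sign. Bbc3, the apoptosis activator Puma, differed by 0.39 ± 0.14, Gclm, a subunit of the enzyme that starts glutathione synthesis, by -0.34 ± 0.14, and Mt3, a metallothionein of neurons, by 0.56 ± 0.25. Notch pathway genes had a median of -0.04 over 17 genes, with Rbpj, the DNA-binding partner of Notch, at -0.31 ± 0.13. A second, dimmer Rbpj probe set gave -0.04 ± 0.14.

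Marker lists of tissue next to the retina held differences of both signs. All 14 measured lens genes stood higher in combination retinas, with a median of 0.50, 8 had non-overlapping arrays (57.1%, against 13.7% of all genes), and 0 had an unadjusted p under 0.05. The test takes its spread from all 10 groups, and lens levels varied widely between the day 5 arrays. For Cryba1 it gave 0.87 ± 1.16, so the count of 0 does not reflect the spread of the 6 arrays compared. The lens list mean was 6.39, 6.89 and 6.71 in combination retinas and 6.23, 6.07 and 6.15 in saline retinas. Cryba1, a lens crystallin, read 6.57, 7.38 and 6.51 in combination retinas and 5.84, 6.12 and 5.89 in saline retinas. Crybb2, another, read 7.44, 7.94 and 8.01 in combination retinas and 7.19, 6.93 and 6.95 in saline retinas. Skeletal muscle genes stood higher in 12 of 14 cases, with a median of 0.16 and a list mean of 6.02, 6.13 and 6.10 in combination retinas against 5.90, 5.93 and 5.88 in saline retinas. Fibroblast genes had a median of -0.24 over 14 genes, pigment epithelium genes -0.13 over 13, red blood cell genes 0.19 over 8 and oligodendrocyte genes 0.12 over 12. After quantile normalization the medians were 0.44 for lens, 0.03 for muscle and 0.02 for red blood cell genes. Those of fibroblast, pigment epithelium and oligodendrocyte genes were then -0.23, -0.21 and 0.12. The pigment epithelium list mean overlapped, at 7.68, 7.56 and 7.60 in combination retinas and 7.96, 7.67 and 7.60 in saline retinas. The part of these tissues in the differences above was not tested.

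**Figure D4:**
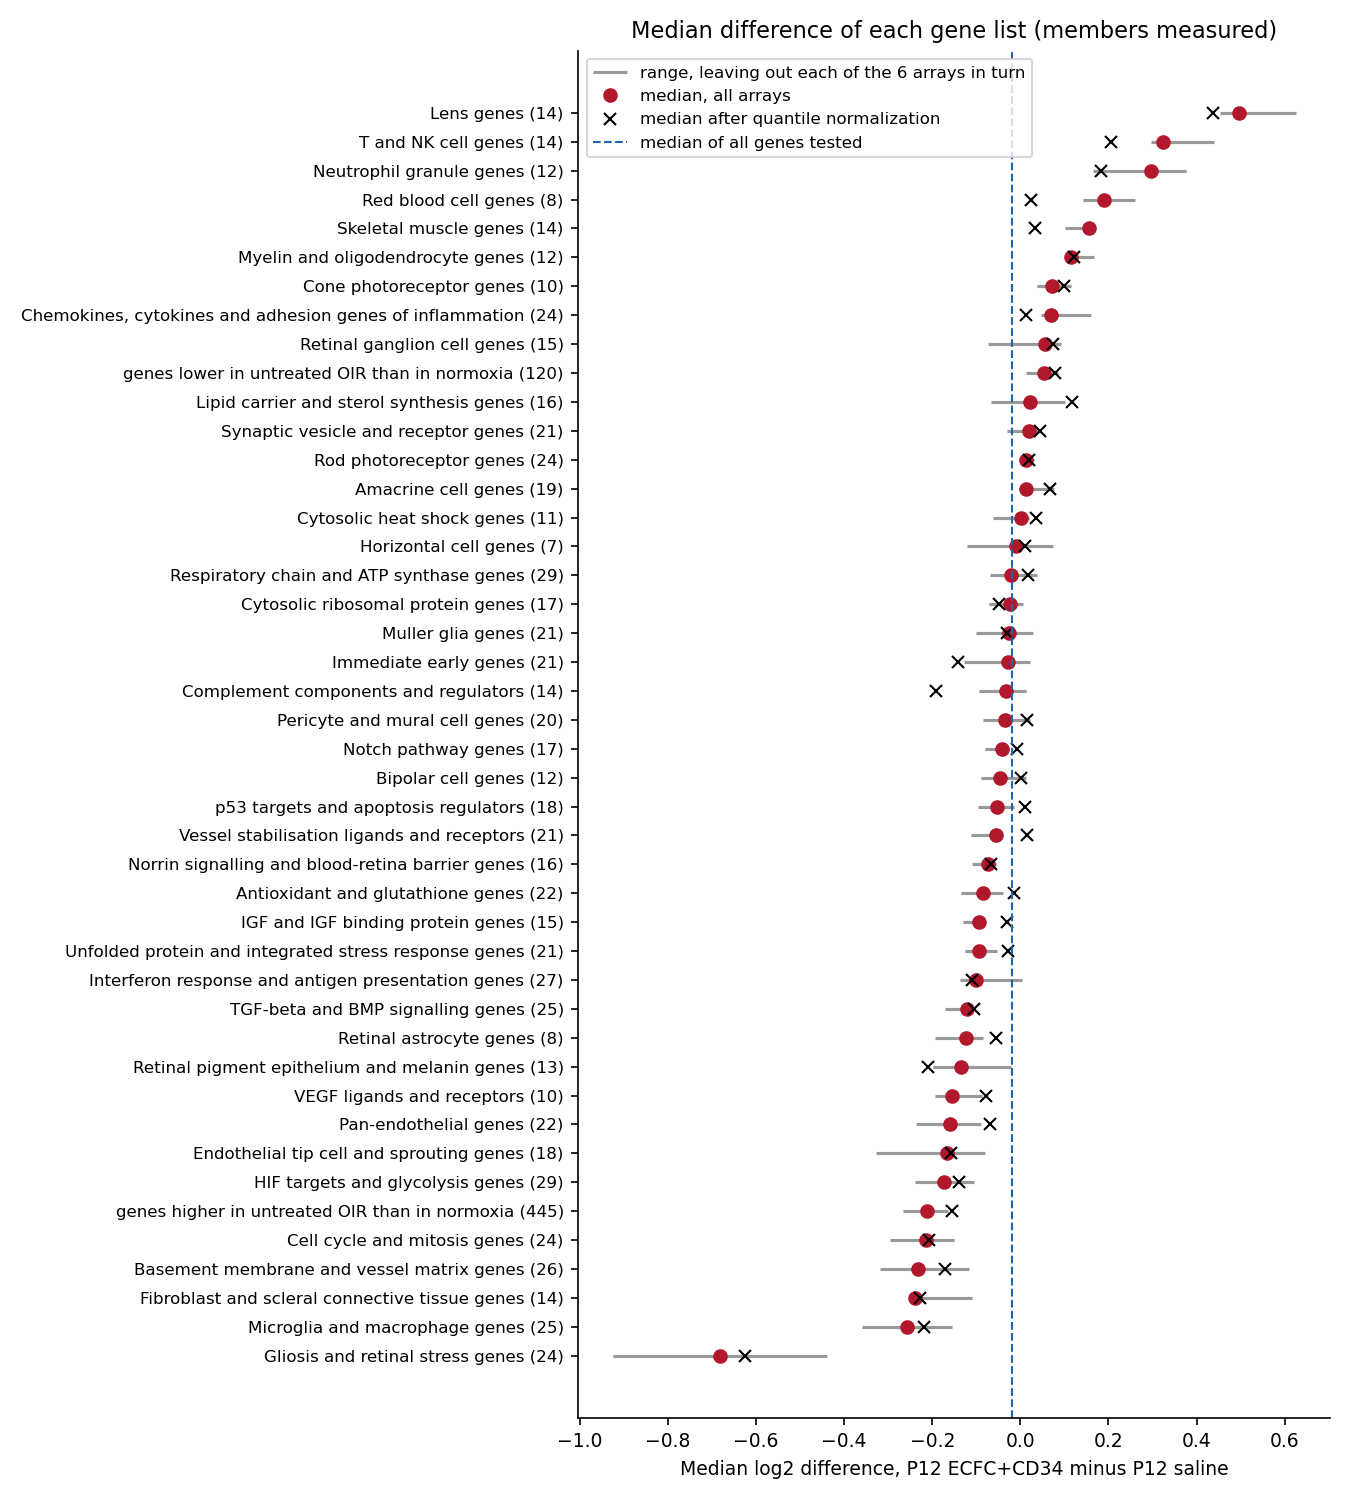
Median log2 difference (P12 ECFC+CD34 minus P12 saline) of the members of each gene list, with the number measured in brackets, the range when each of the 6 arrays is left out in turn (grey) and the value after quantile normalization (crosses). The gliosis list lies lowest (-0.68) and the lens list highest (0.50), and the dashed line is the median of all genes (-0.02).

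Genes that OIR itself raised lay lower after the combination. Between uninjected OIR and normoxia, 565 genes passed the same test (4.56%), 445 of them higher in OIR (3.59%) and 120 lower (0.968%). The split was 439 higher and 236 lower after quantile normalization, and 393 and 345 after median centring. Of the 445 genes, 395 lay lower in combination than in saline retinas, with a median of -0.21 (all genes -0.02), and 132 (29.7%, against 10.2% of all genes) had combination arrays fully below saline. The median was -0.16 after quantile normalization, -0.13 after median centring and from -0.27 to -0.16 when each of the 6 arrays was left out. The median rise of these genes in OIR, by which they were chosen, was 0.85. Whether the combination reversed a part of that rise was not tested. Of the 120 genes lower in OIR, 72 stood higher in combination than in saline retinas, with a median of 0.05. The mean log2 level of the 445 genes was 8.68, 8.46 and 8.55 in combination retinas and 8.67, 8.80 and 8.89 in saline retinas, against 8.81, 8.90 and 9.13 in uninjected OIR and 8.02, 7.97 and 7.92 in normoxia. Replicate 1 of the combination and replicate 1 of saline were thus close. Across the 565 genes the 2 differences, which share no arrays, had r = -0.64, and across all genes r = -0.51. Quantile normalization gave -0.61 and -0.46. These are correlations across genes, which are not independent replicates.

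**Figure D5:**
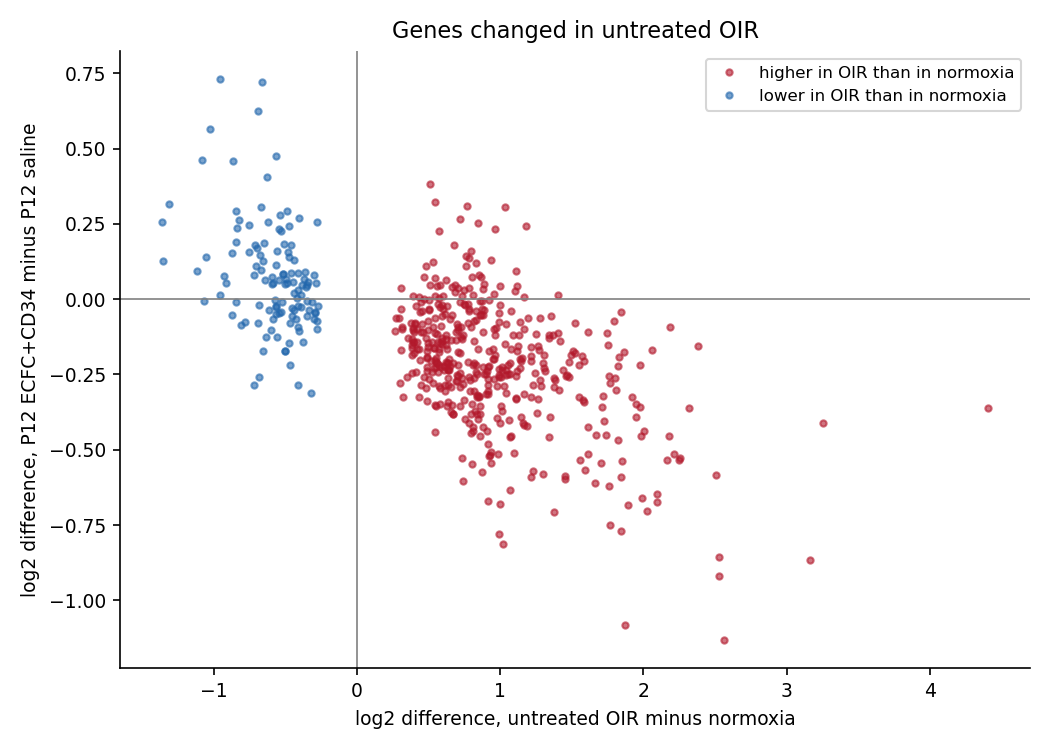
Each point is 1 of the 565 genes changed in untreated OIR, by its log2 difference there (horizontal, untreated OIR minus normoxia) and between P12 ECFC+CD34 and P12 saline (vertical). Of the 445 genes higher in OIR (red), 395 lie below 0 on the vertical axis, and of the 120 lower in OIR (blue), 72 lie above 0.

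The combination was also compared directly with each cell type injected alone on day 12. Against ECFC alone 0 of 12393 genes passed (0%), and 263 had an unadjusted p under 0.05 (2.12%), with 83 higher (0.67%) and 180 lower (1.45%). This split turned round to 255 higher and 197 lower after quantile normalization, to 145 and 113 after median centring, and to 166 and 127 without replicate 3 of the combination, and the count was 461 without ECFC replicate 1. The genes of smallest p were Tmem134, Ercc2 and Mageh1, each with an adjusted p of 1. Tmem134, a membrane protein, read 8.22, 8.04 and 7.86 with the combination and 7.79, 7.33 and 7.66 with ECFC alone, a difference of 0.45 ± 0.11, while its second probe set gave -0.07 ± 0.11. Ercc2, a helicase of DNA repair and transcription, read 9.28, 9.29 and 9.51 with the combination and 8.76, 8.14 and 9.20 with ECFC alone. Pdgfrb, Rgs5, Cspg4 and Pdgfb differed from ECFC alone by 0.08, 0.20, 0.14 and 0.14, with SE of 0.17, 0.16, 0.18 and 0.17. The OIR-raised genes had a median of 0.07 and gliosis genes one of -0.01. Both treatments are set against the same saline arrays elsewhere, so their differences from saline share that error: over the OIR-raised genes the median was -0.21 with the combination and -0.26 with ECFC alone, and over the gliosis list -0.68 and -0.63.

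Against CD34+ cells alone 0 genes passed (0%), and 561 had an unadjusted p under 0.05 (4.53%), with 77 higher (0.621%) and 484 lower (3.91%). The excess of lower genes was absent after quantile normalization, with 246 higher and 253 lower, and after median centring, with 183 and 186. The count was 137 without replicate 3 and 892 without replicate 1 of the combination, and 948, 192 and 315 without CD34 replicates 1, 2 and 3. Twf2, an actin-capping protein, read 9.13, 9.11 and 9.15 with the combination and 9.53, 9.64 and 9.90 with CD34+ cells alone, a difference of -0.56 ± 0.12 (adjusted p = 0.938). Ppp2r1b and Trip6 followed, with differences of -0.39 ± 0.09 and -0.35 ± 0.09. The OIR-raised genes had a median of -0.12 and the gliosis list one of -0.25. Pdgfrb, Rgs5, Cspg4 and Pdgfb differed from CD34+ cells alone by -0.05, 0.12, -0.05 and 0.17.

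Whether the combination exceeded the sum of both cell types was tested as combination minus ECFC minus CD34 plus saline. No gene passed (0%), and 776 had an unadjusted p under 0.05 (6.26%), with 198 above the sum (1.6%) and 578 below it (4.66%). The genes of smallest p were Nectin4, an adhesion molecule of epithelia, Slc2a2, a glucose transporter, and Emc4, a part of the membrane protein insertion complex. Nectin4 read 6.81, 7.13 and 7.05 with the combination, 7.40, 7.65 and 7.77 with ECFC, 7.16, 7.30 and 7.22 with CD34+ cells and 6.13, 6.61 and 6.72 with saline. Its departure from the sum was -1.35 ± 0.27, with an adjusted p of 0.561, and a second probe set gave -0.23 ± 0.21. The second Emc4 probe set gave 0.04 ± 0.15, against -0.68 ± 0.16 for the brighter one. Each treatment alone stood farther above saline than the combination did. For Pdgfrb, Rgs5 and Cspg4 the departures from the sum were 0.11 ± 0.24, 0.25 ± 0.23 and 0.14 ± 0.26.

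The effect of the combination at day 12 was set against its effect when injected on day 5. For the difference between the 2 effects 0 genes passed (0%), and 1419 had an unadjusted p under 0.05 (11.5%), with 878 higher (7.08%) and 541 lower (4.37%) at day 12. That count was 779 without P5 saline replicate 1 and 889 without replicate 3 of the P12 combination. C920021L13Rik and Dnah8, a motor protein of cilia, had the smallest adjusted p, 0.053 each. Dnah8, at the brighter of its probe sets, read 6.15, 6.34 and 6.39 with the combination and 5.60, 5.81 and 5.32 with saline at day 12. At day 5 it read 5.26, 5.77 and 5.13 with the combination and 5.97, 6.30 and 6.39 with saline, so the differences had opposite signs. Xbp1, a transcription factor of the unfolded protein response, differed by -0.18 at day 12 and 0.77 at day 5, and the adjusted p of that difference was 0.138. The OIR-raised genes had a median of -0.21 at day 12 and 0.03 at day 5, and the gliosis list medians were -0.68 and 0.08. The lens list mean was 12.16, 9.08 and 8.74 in the day 5 combination group and 13.66, 13.25 and 10.69 in the day 5 saline group, far above the day 12 arrays, and the design text pairs day 5 injection with collection on day 12. Injection day and collection day cannot be told apart there, and the part of lens RNA was not tested.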

How the data were processed

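The authors deposited a single table of log2 values, with 22690 probe sets in rows and 30 arrays in columns. Per the labels' protocols, RNA of 1 retina per pup was isolated with the RNeasy kit, and 100 ng of it went into Ovation PicoSL amplification and Encore biotin labelling. Partek is named in the submitters' processing notes. How signals were summarised, background-corrected and normalized is not given in the sources used here, and no further scaling was applied. Arrays give no counts, so their number limits the precision.

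The platform annotation gave 1 symbol to 20380 probe sets, several to 691 and none to 1555, with 64 controls. Where a gene had several probe sets of its own, the brightest on average was kept, which left 12393 genes. For 29 probe sets with 1 symbol the gene did not match the RefSeq table.

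The test was limma's moderated statistic (limma 3.58.1, R 4.3.3; two-sided), from a model with a mean for each of the 10 groups and 20 residual degrees of freedom. P-values were adjusted by Benjamini-Hochberg over 12393 genes, and a gene passed at an adjusted p under 0.05. All groups share 1 estimate of spread. Intervals are 95% intervals from the same fit. In simulated data of this design, with independent noise and no array-wide shifts, the fit returned the changes put in. That checks the fit and does not measure its power in these retinas. Groups came from the sample titles. The numbers of replicates did not pair retinas: residuals of combination and saline arrays of equal number correlated at -0.16, 0.21 and 0.13. The sex of each retina was read from Xist and Y-linked genes.

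The genes to compare and the 42 gene lists (841 members, 750 measured) were chosen with earlier results of these data known, so the lists support nothing by themselves and no test was run over them. Lists were described by counts, medians and the number of genes whose arrays did not overlap. The genes named are the 6 of smallest p in each direction and up to 4 members of each list by smallest p. To these were added 18 fixed genes and the 3 of smallest p in each other contrast, and the text gives a part of them. Promoters are RefSeq windows of build GRCm38.p6, matched by symbol. Alternatives rescaled the arrays (quantile normalization or median centring), changed the features (all probe sets, or without the lowest 30% of genes) or the model (a 1.5-fold minimum, robust eBayes with a trend, array weights, a replicate block, only the groups compared, covariates for sex and hybridisation controls), or left out each array. A covariate for the interquartile range and leaving out the 2 P12 arrays with the narrowest range were chosen after seeing the data.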

Additional observations from a re-analysis of the deposited data

How the results depend on the processing

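For combination against saline, 0 genes passed under every alternative except array weights, with 78 genes, and leaving out 1 array, with 0 to 2. The 2 genes were Tat and Alpk2 without replicate 1 of the combination. The count at an unadjusted p under 0.05 was 1226 of 12393 genes. Over other numbers of features it was 2302 of 22626 probe sets and 645 of the 8675 genes left without the lowest 30%. Those 2 counts depend on the number tested. Over the same 12393 genes the count moved by over 1.5 times to 2 with a minimum of 1.5-fold, 2571 with array weights and 2277 with only the groups compared. It was 618 with the interquartile range as a covariate and 390 without the 2 P12 arrays of narrowest range. Leaving out 1 array gave 333 (without replicate 3 of the combination) to 1848 (without its replicate 1), with 759 without saline replicate 2 and 816 without saline replicate 3. Of the unadjusted calls 765 were higher and 461 lower as deposited, 779 and 320 after quantile normalization, 1142 and 196 after median centring, and 192 and 453 without the lowest 30% of genes. Array weights gave 4 genes against ECFC alone, 8 against CD34+ cells alone, 457 for the departure from the sum and 266 for the difference between injection days. For that difference, 1 gene passed without the lowest 30% of genes, 1 with the replicate block, 2 with sex as a covariate and 1049 with a covariate for the hybridisation controls, whose mean differed between the day 5 and day 12 arrays. Leaving out 1 array gave 0 to 1 gene against ECFC alone, 0 to 1 against CD34+ cells alone, 0 to 1 for the departure from the sum and 0 to 4 for the difference between days. For OIR against normoxia, 565 of 12393 genes passed, and 935 of the larger number of 22626 probe sets. Over the 12393 genes the count was 44 with a minimum of 1.5-fold and 348 with only the groups compared. It was 242 to 615 with 1 array left out (242 without OIR replicate 3, 324 without normoxia replicate 3). The 120 lower genes were 236 after quantile normalization and 345 after median centring. The median of the genes lower in OIR, 0.05, was 0.14 after median centring. The replicate block gave 0 genes for combination against saline and 600 for OIR against normoxia. The labels do not say that equal replicate numbers mark pairs, so the block is given here only. Of the 102 genes named, 93 kept the sign of their difference from saline in the alternatives that used the same probe set, and 9 did not. Pdgfrb, Rgs5 and Cspg4 were among the 9. Of the 102, 46 had several probe sets, and 13 had at least 1 of the opposite sign (Akt2, Rgs5, Cspg4, Acta2, Pdgfb, Mcm2, Stat3, Cxcl16, Prph, Glul, Rbpms, Emc4 and Tmem134). The causes were not tested.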
